A study of Mus musculus with 18 samples.

Results

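The 10 genes described here carry the core steps of MHC class I antigen presentation in mouse CD8+ T cells. They are H2-K1 and H2-D1, which encode the class I heavy chains K and D, B2m, which encodes the shared light chain beta-2 microglobulin, and Tap1, Tap2 and Tapbp, which encode the peptide transporter and the loading factor tapasin. Psmb8, Psmb9 and Psmb10 encode the inducible catalytic subunits of the immunoproteasome, and Nlrc5 encodes the transactivator of class I genes. The genes were chosen by symbol from their known roles, with earlier results of these data known. All 10 of 10 were listed in each of the 3 deposited tables, which held 17738 genes for cultured cells, 13537 genes for Nr4a1RFP+ and Tim-3+ cells and 13610 genes for Ly108+ cells.

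Class I molecules display short peptides from proteins made inside a cell, so that CD8+ T cells can recognise infected or transformed cells. The proteasome cuts proteins into peptides, the Tap1 and Tap2 transporter carries them into the endoplasmic reticulum, and tapasin helps to load them onto a heavy chain paired with beta-2 microglobulin. T cells carry class I on their own surface, and interferon gamma, which CD8+ T cells secrete, is a classical inducer of these genes through Irf1 and Nlrc5. Nr4a1 encodes an orphan nuclear receptor that is rapidly induced by T cell receptor signals.

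The series holds 18 RNA libraries in 8 groups of mouse T cells, named here as in the labels. In culture, cells infected with a virus for Nr4a1 (Nr4a1-OV, 2 libraries) were set against cells infected with the control virus RV-GFP (2 libraries). Naive CD8+ T cells, of which 2 libraries are labelled Nr4a1 WT and 2 Nr4a1 KO, had been activated on plates coated with antibodies to CD3 and CD28 at 2 μg/mL. Before harvest, cells of all 8 cultured libraries were stimulated again for 2 h with PMA plus ionomycin, drugs that act downstream of the T cell receptor. From tumours, OT-I cells, whose transgenic receptor recognises an ovalbumin peptide on the class I molecule K, were sorted on day 21 as Nr4a1RFP+ (2 libraries) or Tim-3+ (2 libraries), both of WT genotype. OT-I cells positive for Ly108, a marker of stem-like T cells, were sorted as Nr4a1+/+ (Ly108+ Nr4a1 WT, 3 libraries) or Nr4a1-/- (Ly108+ Nr4a1 KO, 3 libraries). The labels do not say whether libraries of a group came from separate animals or cultures, so p-values measure only the spread between these libraries. Nor do the sources used here give the genetic background of WT and KO cells or the tumour type.

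Cultured libraries held between 16769720 and 17119726 counts, and the members had between 1133 (Psmb10) and 55313 (B2m) counts in each cultured library. T cell markers (6 of 6 listed genes, or 5 in the table of Nr4a1RFP+ and Tim-3+ cells) summed to between 1555 and 3627 RPKM (reads scaled by gene length and library size) across all libraries, and none of those listed was at 0. Nr4a1 itself stood at 1513 and 1447 RPKM in Nr4a1-OV and at 564.7 and 624.5 RPKM in RV-GFP libraries. It was at 113.2 and 114.6 RPKM in Nr4a1RFP+ and at 131.9 and 125.0 RPKM in Tim-3+ libraries, which did not pass (limma, adjusted p = 0.364). Under the label KO, Nr4a1 was higher than under the label WT. In culture it was at 102.9 and 102.6 against 82.7 and 96.31 RPKM (log2 fold change 0.20, edgeR, adjusted p = 0.0171). In Ly108+ cells it was at 100.6 to 112.4 against 45.02 to 53.89 RPKM (1.10, limma, adjusted p = 0.000434). A sum over the whole gene cannot show whether a part of it was deleted, so KO and WT are used below strictly as labels.

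Of the members, 7 lie on chromosome 17 within the major histocompatibility complex (GRCm38, GENCODE M21). Psmb9, Tap1, Psmb8 and Tap2 are neighbours there, between bases 34181987 and 34216321, with Tapbp and H2-K1 on the proximal side and H2-D1 on the distal side. B2m lies on chromosome 2, and Nlrc5 and Psmb10 lie on chromosome 8. Psmb9 and Tap1 run away from each other in opposite directions, and their annotated transcripts overlap by 212 bases. Longer annotated overlaps were those of Tapbp with Zbtb22 on the same strand (3422 bases) and, on opposite strands, B2m with Patl2 (5398 bases). Psmb10 overlapped Gm16156 on the opposite strand by 2710 bases, and Tap2, Psmb8 and Nlrc5 overlapped other annotated genes too. The sources used here do not state whether counting used strand, and reads in these overlaps may have been assigned to either gene.

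The stretches before the transcription starts are shown because the heavy chains and light chain, on the one hand, and the Tap1 and Psmb9 pair, on the other, differed from each other in the results below. They come from RefSeq on GRCm38.p6, where 8 of the 10 members had an entry, and are written on the strand of the gene, 5′ to 3′. Capitals mark letters that matched a motif searched on both strands: the Y box ATTGG, bound by the NF-Y complex with which Nlrc5 cooperates, a kappa B core GGGATTCCC, an interferon-stimulated response element core GAAANNGAA and a gamma-activated site TTCNNNGAA.
H2-K1, chr17:34000348-34000597, minus strand: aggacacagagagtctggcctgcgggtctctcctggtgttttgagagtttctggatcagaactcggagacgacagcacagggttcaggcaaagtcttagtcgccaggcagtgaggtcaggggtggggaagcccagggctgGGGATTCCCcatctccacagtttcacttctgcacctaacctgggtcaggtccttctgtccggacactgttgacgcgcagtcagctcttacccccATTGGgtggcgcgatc
H2-D1, chr17:35262844-35263093, plus strand: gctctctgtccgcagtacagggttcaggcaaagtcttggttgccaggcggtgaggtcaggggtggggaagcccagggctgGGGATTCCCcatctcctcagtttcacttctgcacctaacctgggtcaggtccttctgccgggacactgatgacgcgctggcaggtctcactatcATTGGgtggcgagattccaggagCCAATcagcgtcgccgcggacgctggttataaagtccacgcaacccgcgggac
B2m, chr2:122147437-122147686, plus strand: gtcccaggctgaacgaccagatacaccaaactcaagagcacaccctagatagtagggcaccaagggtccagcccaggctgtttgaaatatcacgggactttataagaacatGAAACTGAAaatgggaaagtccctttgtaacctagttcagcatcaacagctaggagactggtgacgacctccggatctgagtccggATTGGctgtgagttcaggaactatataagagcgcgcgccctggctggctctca
Tap1 (plus strand) and Psmb9 (minus strand), the bases between their starts, chr17:34187331-34187555, shown on the plus strand: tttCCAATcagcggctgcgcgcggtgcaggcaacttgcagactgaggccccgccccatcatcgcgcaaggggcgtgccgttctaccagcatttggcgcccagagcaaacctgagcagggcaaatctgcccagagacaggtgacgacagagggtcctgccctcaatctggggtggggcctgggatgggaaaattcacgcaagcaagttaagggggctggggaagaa
Psmb8, chr17:34197945-34198194, plus strand: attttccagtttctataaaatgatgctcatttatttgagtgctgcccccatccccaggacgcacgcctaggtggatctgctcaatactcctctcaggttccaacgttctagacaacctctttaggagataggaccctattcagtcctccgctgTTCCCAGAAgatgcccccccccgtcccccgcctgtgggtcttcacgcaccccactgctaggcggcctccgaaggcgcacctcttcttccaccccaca

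In windows from 250 bases before to 50 bases after the start, the Y box was present in 6 of the 8 members with an entry (H2-K1, H2-D1, B2m, Tapbp, Tap1 and Psmb9) and in 37.4% of all 32851 RefSeq windows of that length. The Tap1 and Psmb9 windows shared 275 of their 300 bases, and their Y box is the same site, counted for both genes. The kappa B core was present in H2-K1 and H2-D1, and in 0.353% of all windows. These heavy chain promoters also shared an identical run of 47 bases, while neither shared more than 8 with B2m. The response element core was found in B2m (8.56% of all windows) and the gamma-activated site in Psmb8 (8.30%). The NBRE letters AAAGGTCA, the response element bound by Nr4a1, were found in none of the 8 windows and in 1.51% of all windows. A match describes letters in the window, not a bound site. A missing match says nothing about other forms of these elements within the window, heavy chain windows included, or about binding elsewhere.

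In Nr4a1-OV cells, 8 of the 10 members were higher than in RV-GFP cells and none was lower, with the largest rises in the transporter subunit Tap1, the transactivator Nlrc5 and the immunoproteasome subunit Psmb9. B2m and Psmb10 did not pass the threshold. In this comparison 60.9% of the 14994 genes tested passed (edgeR's quasi-likelihood test, adjusted p under 0.05), 31.3% as higher and 29.6% as lower. The members' median log2 fold change was 0.31, beside 0.02 over all genes tested.

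Tap1, which forms the transporter with Tap2, was at 71.1 and 73.2 RPKM in Nr4a1-OV and at 40.0 and 42.3 RPKM in RV-GFP libraries. The groups lay far apart relative to their spread, and Tap1 was 1.76-fold higher (log2 fold change 0.81, SE 0.05, adjusted p = 2.78e-11). Tap2 was at 35.3 and 35.9 against 28.9 and 28.5 RPKM (0.31, SE 0.06, adjusted p = 5.68e-05). Tapbp, whose product bridges the transporter and the empty class I molecule, was at 64.2 and 68.5 against 48.9 and 51.2 RPKM (0.41, SE 0.06, adjusted p = 2.70e-06). Every Nr4a1-OV library lay above every RV-GFP library for all 3 of these genes. For the cultured comparisons, here and below, the share of all genes whose groups did not overlap was not computed.

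Nlrc5 was at 70.8 and 64.6 RPKM in Nr4a1-OV and at 46.1 and 40.3 RPKM in RV-GFP libraries. It was 1.57-fold higher with no overlap of the groups (log2 fold change 0.65, SE 0.06, adjusted p = 1.06e-08). Psmb9, which replaces the constitutive subunit Psmb6 in the immunoproteasome, was at 29.4 and 29.3 against 20.5 and 21.1 RPKM (0.50, SE 0.06, adjusted p = 9.40e-08). Psmb8, which replaces Psmb5, was at 51.4 and 53.6 against 43.6 and 41.2 RPKM (0.31, SE 0.06, adjusted p = 5.68e-05). Psmb10, which replaces Psmb7, was at 45.7 and 46.6 against 43.3 and 47.0 RPKM, and these groups overlapped (0.04, SE 0.06, adjusted p = 0.649).

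The heavy chains and light chain were among the most abundant transcripts of these cells and differed less. H2-K1 was at 782.9 and 835.4 RPKM in Nr4a1-OV and at 688.6 and 715.7 RPKM in RV-GFP libraries (log2 fold change 0.21, SE 0.05, adjusted p = 0.00171). That call ended without RV-GFP replicate 1, at 0.14 and an adjusted p of 0.0885. H2-D1 was at 624.9 and 663.4 against 540.7 and 563.6 RPKM (0.23, SE 0.05, adjusted p = 0.00056). B2m was at 3440 and 3751 against 3331 and 3553 RPKM, with overlapping groups (0.07, SE 0.06, adjusted p = 0.325). H2-K1, H2-D1 and the other class I heavy chain genes are close in sequence, so how their reads were divided among them is uncertain throughout.

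**Figure D1:**
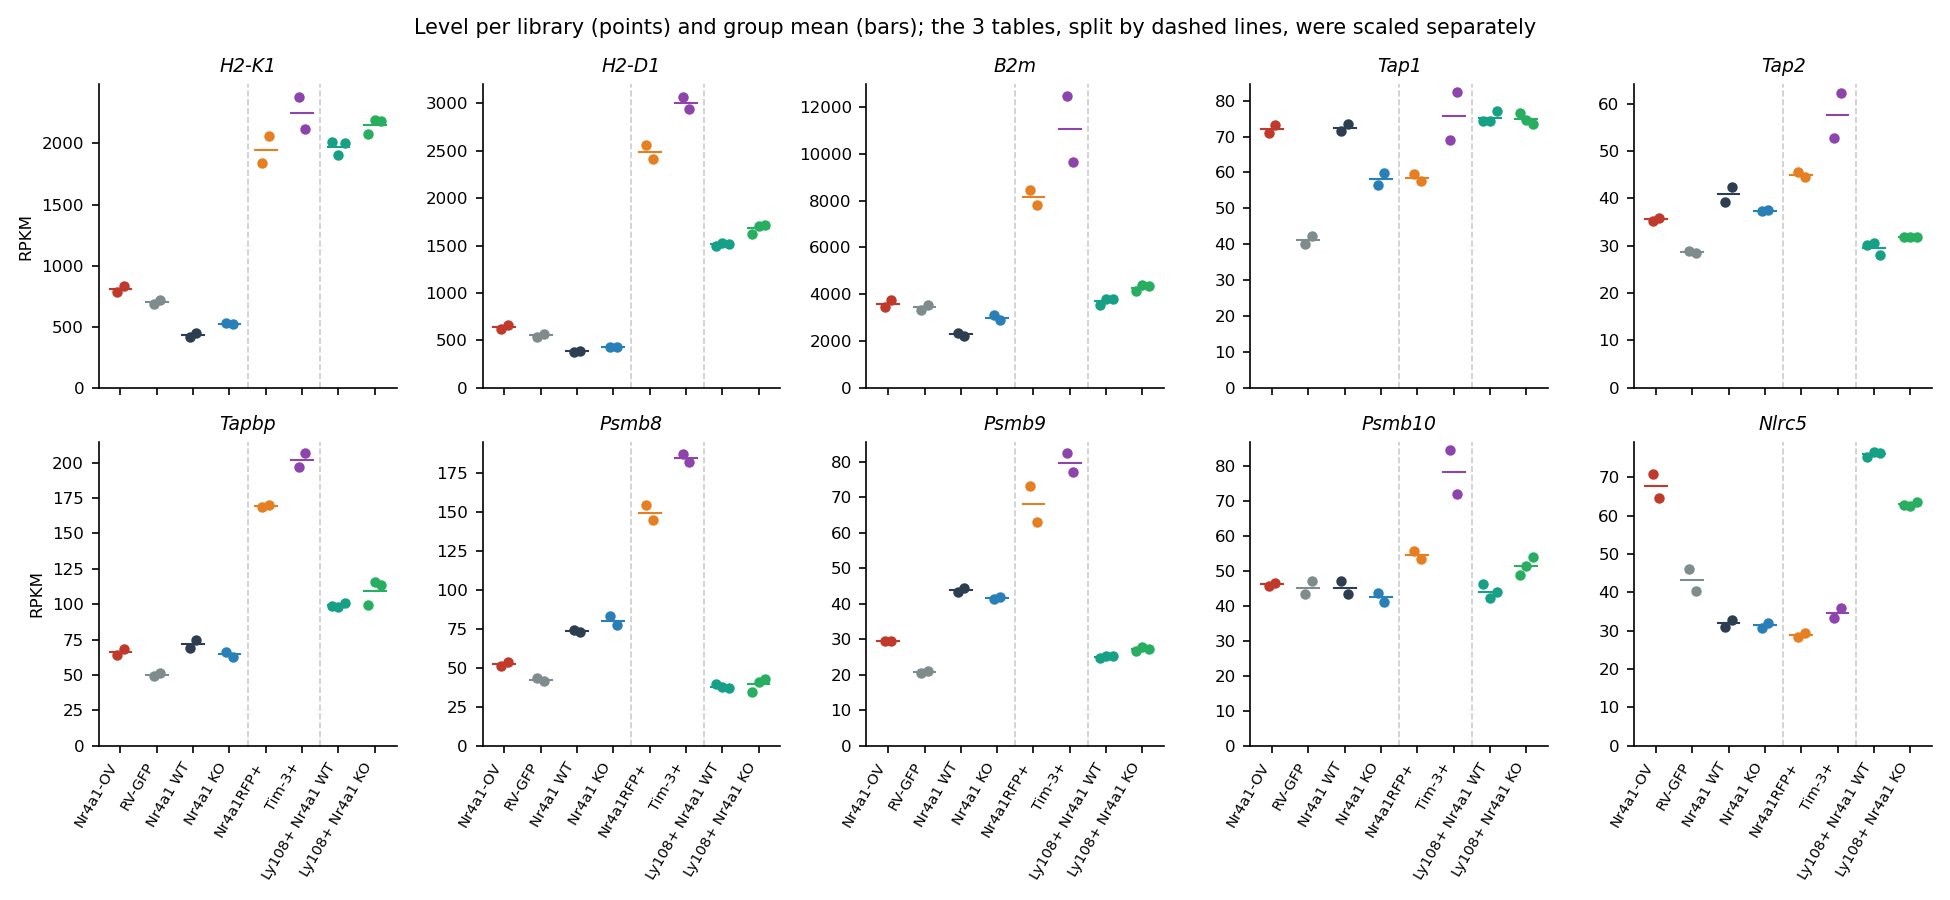
RPKM of the 10 members in all 18 libraries (points) with group means (short lines), and with dashed lines between the 3 tables, which were scaled separately. In culture, RV-GFP libraries have the lowest Tap1 values, 40.0 and 42.3 RPKM. Among Ly108+ libraries, those labelled Nr4a1 WT have the higher Nlrc5 values, 75.4 to 76.7 RPKM.

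The other subunits of the 20S core moved the other way from Psmb8 and Psmb9 in Nr4a1-OV cells. The constitutive catalytic subunits Psmb5 (log2 fold change -0.53, SE 0.08), Psmb6 (-0.49, SE 0.06) and Psmb7 (-0.57, SE 0.08) all fell, and so did 11 of the 11 other 20S core subunits tested, with a median of -0.465. Psma7, an outer ring subunit, was at 58.3 and 60.3 RPKM in Nr4a1-OV and at 91.6 and 92.6 RPKM in RV-GFP libraries (-0.63, SE 0.06, adjusted p = 4.52e-09). Of 9 activator and assembly genes, 7 fell and none rose. Those that fell included Psme3, the gamma subunit of the PA28 activator (-0.82, SE 0.05), Psme2, a PA28 subunit inducible by interferon gamma (-0.44, SE 0.06), and the assembly chaperone Psmg1 (-0.54, SE 0.07).

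The ratio of inducible to constitutive subunit was therefore computed per library from RPKM. Psmb8 over Psmb5 was 1.31 and 1.20 in Nr4a1-OV libraries and 0.752 and 0.652 in RV-GFP libraries, a 1.79-fold difference of geometric means. Psmb9 over Psmb6 was 0.543 and 0.494 against 0.261 and 0.258, a 2.00-fold difference, and Psmb10 over Psmb7 was 2.36 and 1.97 against 1.39 and 1.42, a 1.53-fold difference. The libraries of the groups did not overlap for any of these 3 ratios, although Psmb10 itself did not pass. With 2 libraries per group, the two-sided exact permutation test cannot go below 0.33, which was the p of each.

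**Figure D2:**
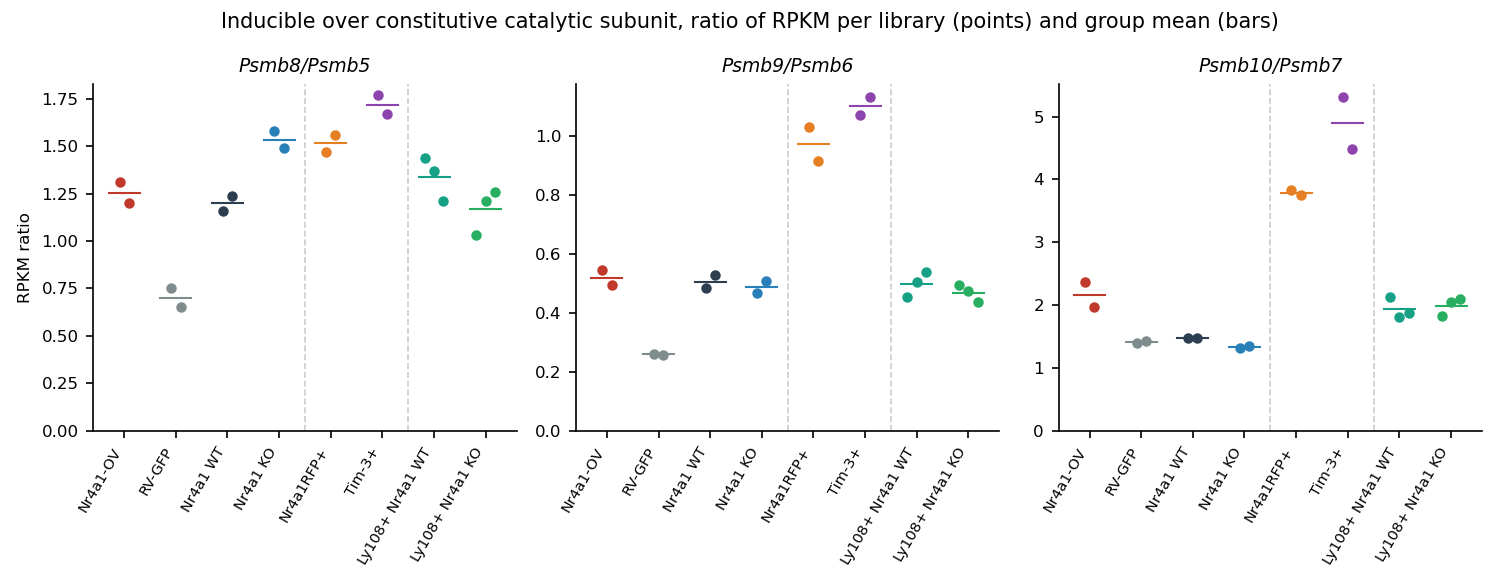
RPKM ratio of each inducible catalytic subunit to the constitutive subunit it replaces, per library (points) with group means (short lines), and with dashed lines between tables. RV-GFP libraries have the lowest Psmb9/Psmb6 ratios, 0.261 and 0.258, and Tim-3+ libraries the highest Psmb10/Psmb7 ratios, 5.31 and 4.48.

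Among the genes listed as loading and trimming, 1 of 9 rose and 8 fell in Nr4a1-OV cells. The list was Tapbpl, Erap1, Calr, Canx, Pdia3, Hspa5, Sec61a1, Sppl3 and Wars, and some of these, such as Hspa5, Sec61a1 and Wars, are not specific to class I. Tapbpl, which encodes the tapasin-related peptide editor TAPBPR, was at 59.2 and 56.2 RPKM against 34.6 and 36.7 RPKM (log2 fold change 0.70, SE 0.06, adjusted p = 8.62e-10). Hspa5, the general chaperone BiP of the endoplasmic reticulum, was at 287.2 and 290.5 against 510.1 and 495.9 RPKM (-0.80, SE 0.05, adjusted p = 3.29e-11). Sec61a1, the channel subunit for protein entry into that compartment, fell by 0.57 on the log2 scale (adjusted p = 2.96e-09). The members and most of these listed genes thus did not share a direction.

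Of 18 regulators of class I genes, 6 rose and 6 fell. Irf1, the interferon regulatory factor that binds class I promoters, was at 89.5 and 92.6 RPKM in Nr4a1-OV and at 44.3 and 43.6 RPKM in RV-GFP libraries, 2.08-fold higher (log2 fold change 1.05, SE 0.05, adjusted p = 2.51e-13). Irf2, which binds the same element, rose by 0.67 (SE 0.06). Nfya, a subunit of NF-Y, fell by 0.64 on the log2 scale (adjusted p = 5.48e-09). Rfx5, a subunit of the RFX complex that joins Nlrc5 at class I promoters, did not pass (0.11, SE 0.08, adjusted p = 0.272).

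Ifng, which encodes interferon gamma, was at 622.9 and 650.9 RPKM in Nr4a1-OV and at 3473 and 3648 RPKM in RV-GFP libraries, a 5.58-fold lower level (log2 fold change -2.48, SE 0.11, adjusted p = 4.39e-14). Its receptor subunit Ifngr1 was at 140.0 and 136.8 against 54.5 and 58.1 RPKM (1.30, SE 0.06, adjusted p = 7.76e-14). All 14 interferon gamma signal and target genes passed, 9 as higher and 5 as lower. The guanylate-binding protein gene Gbp5 rose by 1.27 (SE 0.06), while its relative Gbp2 fell by 0.37 on the log2 scale (adjusted p = 1.44e-06).

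Of 13 other class I heavy chain genes tested, 9 rose and 2 fell in Nr4a1-OV cells. H2-Q6, of the Qa region, was at 164.4 and 167.4 against 102.4 and 100.9 RPKM (log2 fold change 0.71, SE 0.05, adjusted p = 3.26e-10). H2-Q4 rose by 0.54 (SE 0.05) and Cd1d1, which presents lipids, by 1.46 (SE 0.14).

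Of the T cell markers, Cd8a (means of 203.0 against 374.8 RPKM), Cd8b1 (223.2 against 303.1 RPKM) and Trac passed as lower in Nr4a1-OV than in RV-GFP libraries. Cd3e and Cd3g passed as higher there. In KO against WT libraries, Cd8a and Cd8b1 passed as higher, and Cd3e and Trac as lower. Listed markers of other cell types also differed between the cultured groups, and single genes carried most of several sums. Summed markers of CD4 T cells (4 of 4 genes listed in the table) were at 65.1 to 65.6 RPKM in Nr4a1-OV, 40.0 to 40.1 in RV-GFP, 6.37 to 6.93 in Nr4a1 WT and 6.02 to 6.52 in Nr4a1 KO libraries. Foxp3, the transcription factor of regulatory T cells, made up most of the first sum (mean 55.9 RPKM, against 0.699 in RV-GFP), and Cd40lg, the CD40 ligand gene, most of the second (37.4 RPKM, against 5.54 in Nr4a1-OV), while Cd4 itself was at 0.123 and 0.138 RPKM. The NK list (2 of 4 genes in the table) came down to Eomes, a transcription factor that CD8+ T cells also express, at means of 47.3 RPKM in Nr4a1-OV, 24.5 in RV-GFP, 59.9 in KO and 19.2 in WT libraries, with Fcer1g between 0.101 and 0.337 RPKM in all 4 groups. Summed class II and B cell markers (7 of 9) were at 28.7 to 31.9 RPKM in Nr4a1-OV and 21.3 to 24.1 RPKM in RV-GFP libraries, mostly Cd74, the invariant chain gene (21.6 against 16.8 RPKM). In KO and WT libraries that sum was at 43.7 to 44.5 against 35.6 to 35.7 RPKM, with H2-Ab1 at 11.8 against 5.95 RPKM. Summed myeloid and dendritic markers (5 of 9) were at 13.04 to 13.59 against 4.578 to 4.948 RPKM in KO and WT libraries, almost all Cd68 (12.6 against 4.47 RPKM), with Lyz2 at 0.197 and 0.0423 RPKM. No listed marker had a group of libraries all at 0, and the part of these differences in the class I values was not tested.

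**Figure D3:**
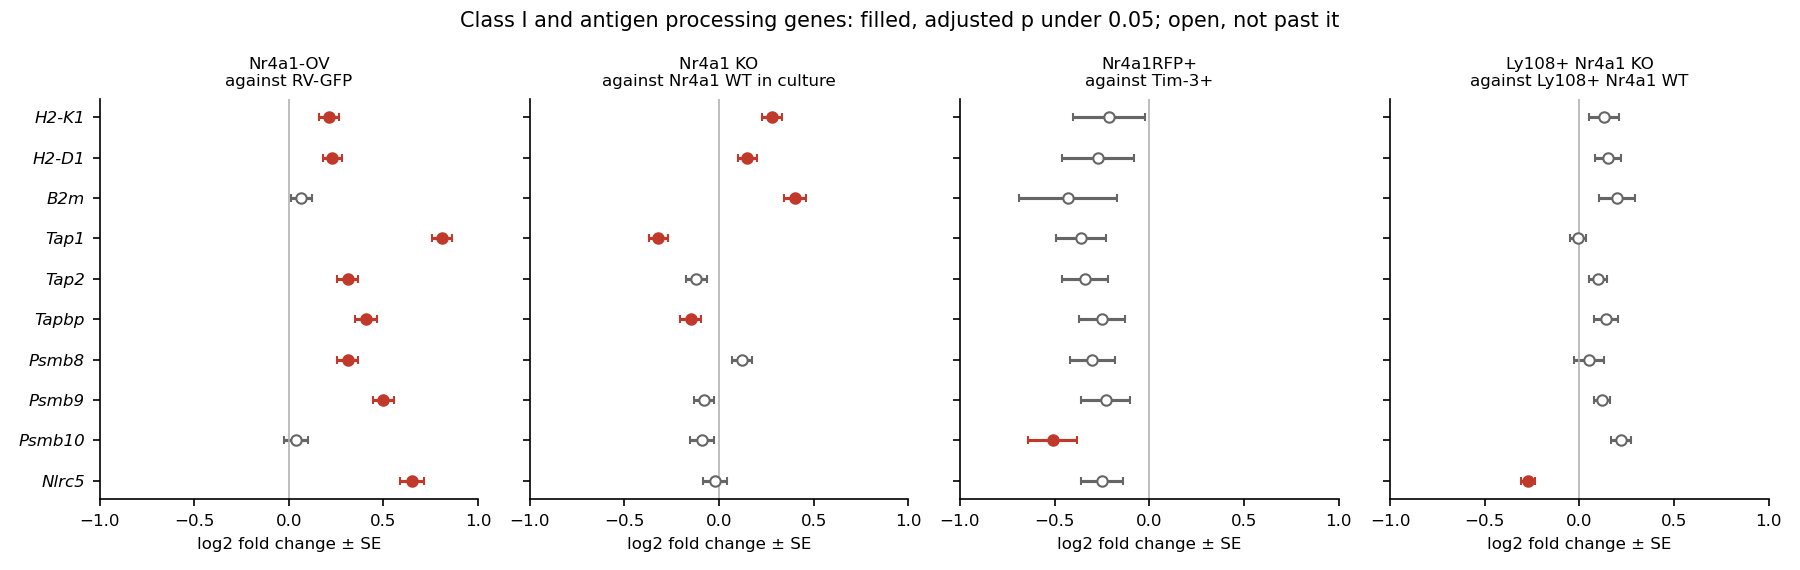
Log2 fold change (point) and its SE (bar) of each member in 4 comparisons, filled where the adjusted p was under 0.05. Values run from -0.51 (Psmb10, Nr4a1RFP+ against Tim-3+) to 0.81 (Tap1, Nr4a1-OV against RV-GFP), and all 10 points of the Nr4a1RFP+ comparison lie below 0.

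In culture, the libraries labelled Nr4a1 KO had more heavy chain and light chain RNA and less Tap1 and Tapbp RNA than those labelled Nr4a1 WT. H2-K1, H2-D1 and B2m were higher, Tap1 and Tapbp were lower, and 5 members did not pass. Over all 14994 genes, 40.1% passed, 18.4% as higher and 21.6% as lower, and the members' median log2 fold change was -0.05 beside -0.03 over all genes. The share of members that passed, 5 of 10, was thus close to that of all genes.

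B2m was at 3130 and 2878 RPKM in KO and at 2337 and 2229 RPKM in WT libraries, 1.32-fold higher (log2 fold change 0.40, SE 0.06, adjusted p = 1.02e-05). H2-K1 was at 529.6 and 520.8 against 417.0 and 448.3 RPKM (0.28, SE 0.05, adjusted p = 0.000206). H2-D1 was at 429.5 and 425.5 against 378.0 and 391.1 RPKM (0.15, SE 0.05, adjusted p = 0.0191). None of these groups overlapped, but the H2-D1 call ended without KO replicate 1 (adjusted p = 0.0744), without KO replicate 2 (0.0561) and without WT replicate 1 (0.0851), each with an estimate of 0.13 to 0.16.

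Tap1 was at 56.6 and 59.8 RPKM in KO and at 71.5 and 73.5 RPKM in WT libraries, 1.24-fold lower (log2 fold change -0.32, SE 0.05, adjusted p = 4.92e-05). Tapbp was at 66.4 and 62.5 against 68.7 and 74.7 RPKM (-0.15, SE 0.06, adjusted p = 0.0385). The Tapbp call ended without KO replicate 2 (-0.11, adjusted p = 0.28), without WT replicate 2 (-0.09, adjusted p = 0.314) and under 3 of the other settings. Tap2 was at 37.3 and 37.5 against 39.1 and 42.5 RPKM, below WT in both libraries but not past the threshold (-0.12, SE 0.05, adjusted p = 0.0754). Nlrc5, at 30.7 and 32.0 against 31.0 and 32.7 RPKM, had overlapping groups (-0.02, SE 0.06, adjusted p = 0.823).

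Of the immunoproteasome genes, Psmb8 was at 83.0 and 77.4 RPKM in KO and at 74.4 and 73.2 RPKM in WT libraries (log2 fold change 0.12, adjusted p = 0.0782). Psmb9 was at 41.2 and 41.8 against 43.3 and 44.4 RPKM (-0.08, adjusted p = 0.251), and Psmb10 at 43.7 and 41.1 against 46.9 and 43.5 RPKM (-0.09, adjusted p = 0.267). None of the 3 passed. Psmb5 fell by 0.24 on the log2 scale (adjusted p = 0.0121), while Psmb6 (-0.03, adjusted p = 0.759) and Psmb7 (0.06, adjusted p = 0.57) did not pass. Psmb8 over Psmb5 was 1.58 and 1.49 in KO and 1.16 and 1.24 in WT libraries, and Psmb10 over Psmb7 was lower, at 1.31 and 1.35 against 1.48 and 1.47. The Psmb9 over Psmb6 ratios of the groups overlapped.

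Around the members, 7 of 13 other heavy chain genes were higher in KO libraries and none was lower. H2-Q10, which encodes a secreted class I molecule, was at 6.57 and 6.35 RPKM in KO and at 0.461 and 0.329 RPKM in WT libraries (log2 fold change 4.03, SE 0.16, adjusted p = 2.65e-14). H2-Q7, which encodes Qa-2, was at 71.6 and 66.4 against 31.9 and 33.7 RPKM (1.08, SE 0.06), and H2-T22, a ligand of some gamma delta T cells, rose by 1.02 (SE 0.06). Since the genetic background of the KO and WT cells is not given, the labelled genotype and any difference of background at these class I loci, members included, cannot be told apart. Of the regulators, Irf1 was at 23.1 and 23.5 RPKM in KO and at 35.7 and 36.6 RPKM in WT libraries (-0.63, SE 0.05, adjusted p = 6.78e-09), and Irf2 fell by 0.27 on the log2 scale. Irf8 rose by 0.45 (SE 0.05) and Stat2 by 0.45 (SE 0.06), so 5 regulators rose and 2 fell of 18. Rfx5 passed as higher (0.22, adjusted p = 0.0427).

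Ifng was at 1597 and 1506 RPKM in KO and at 357.4 and 238.1 RPKM in WT libraries (log2 fold change 2.38, SE 0.11, adjusted p = 2.19e-13). Gbp2 fell by 0.70 (adjusted p = 3.09e-10) and Ifi47, an interferon-inducible GTPase gene, by 0.74 (adjusted p = 1.97e-09), both on the log2 scale. In all, 7 of the 14 interferon gamma genes were higher and 4 lower. Of the other lists, 2 of 9 loading and trimming genes rose (Hspa5 by 0.44 and Calr, which encodes calreticulin, by 0.18) and 3 fell, among them Tapbpl (-0.18, adjusted p = 0.0115). Among the 11 other 20S subunits, Psmb4 alone passed (-0.19, adjusted p = 0.0124), and among the activators Psme2 alone (0.31, adjusted p = 0.000171).

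**Figure D4:**
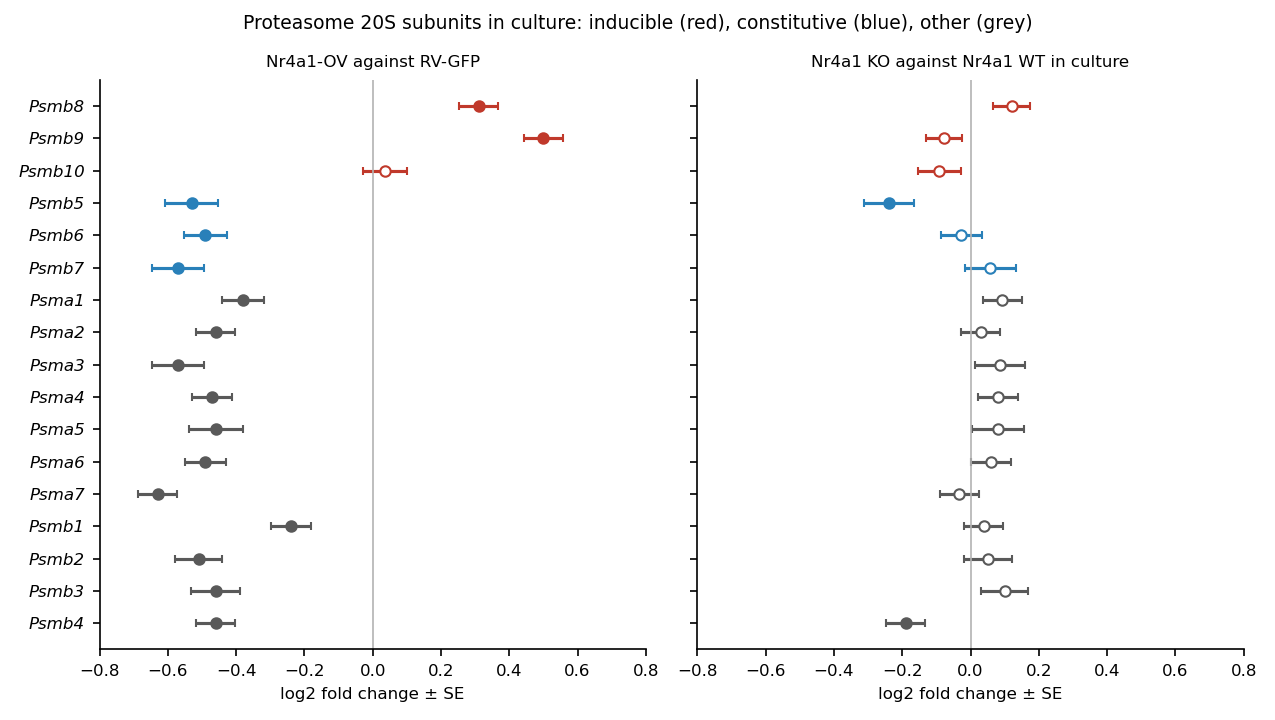
Log2 fold change (point) and SE (bar) of 17 subunits of the 20S core in the cultured comparisons, filled where the adjusted p was under 0.05, in red for the inducible, blue for the constitutive catalytic and grey for the other subunits. In Nr4a1-OV cells Psmb8 and Psmb9 are the only filled points above 0 (0.31 and 0.50), and the blue points lie between -0.57 and -0.49.

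The cultured contrasts used no library in common, and their difference was tested in the same model, as the log2 fold change of Nr4a1-OV against RV-GFP minus that of KO against WT. The difference passed for 7 members, beside 55.8% of all genes (29.6% positive and 26.2% negative). It was positive for Tap1 (1.13, SE 0.07, adjusted p = 4.46e-11), Nlrc5 (0.67, SE 0.09), Psmb9 (0.58, SE 0.08), Tapbp (0.56, SE 0.08) and Tap2 (0.44, SE 0.08), each past the threshold in all 13 alternative settings. It was also positive for Psmb8 (0.19, SE 0.08, adjusted p = 0.0422), but passed there in only 3 of the 13 settings. It was negative for B2m (-0.33, SE 0.08, adjusted p = 0.00153).

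For the heavy chains the difference did not pass, at -0.07 (SE 0.08, adjusted p = 0.427) for H2-K1 and 0.07 (SE 0.07, adjusted p = 0.412) for H2-D1. Both genes were higher in each contrast. Tap1 and Tapbp were the members that passed in opposite directions, as higher in Nr4a1-OV and lower in KO libraries. Irf1 had a difference of 1.69 (SE 0.07) and Ifng of -4.86 (SE 0.15), so Ifng and Irf1 moved in opposite directions within each contrast.

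**Figure D5:**
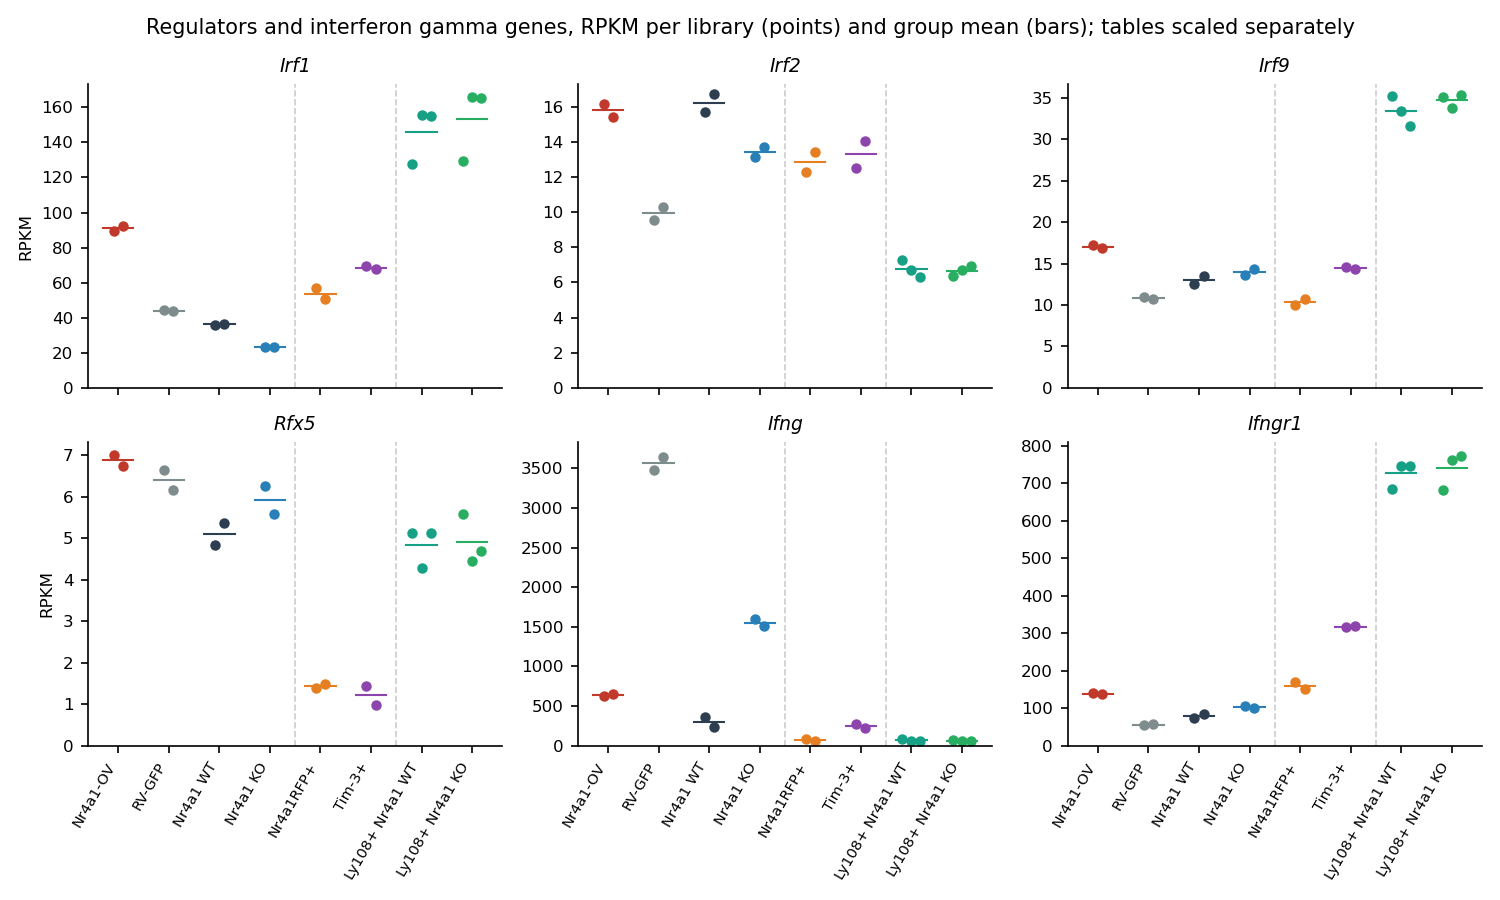
RPKM of 4 regulators of class I genes, of Ifng and of its receptor gene Ifngr1 in all 18 libraries (points) with group means (short lines), and with dashed lines between separately scaled tables. Among cultured libraries, those of RV-GFP hold the highest Ifng values, 3473 and 3648 RPKM, with Irf1 at 44.3 and 43.6 RPKM.

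The control groups of these contrasts also differed from each other. RV-GFP cells were infected and Nr4a1 WT cells were activated on antibody, so the virus, its culture and the labelled genotype cannot be told apart between them, and each of these groups is also the control of a contrast above. H2-K1 (log2 fold change 0.71), B2m (0.60), H2-D1 (0.53) and Nlrc5 (0.45) were higher in RV-GFP libraries, and Psmb9 (-1.07), Tap1 (-0.81), Psmb8 (-0.79), Tapbp (-0.51) and Tap2 (-0.50) were lower, with adjusted p between 1.68e-13 and 1.90e-06. Over all genes, 71.0% passed, 32.4% as higher and 38.6% as lower. Psmb10 was the exception (0.0052, adjusted p = 0.946). Tap1 thus stood at 71.1 and 73.2 RPKM in Nr4a1-OV and at 71.5 and 73.5 RPKM in Nr4a1 WT libraries, while Psmb9 stood at 29.4 and 29.3 against 43.3 and 44.4 RPKM in the same groups.

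In tumours on day 21, all 10 members had lower values in both Nr4a1RFP+ libraries than in both Tim-3+ libraries, but only Psmb10 passed the threshold. The table heads its second group Tex, and no label states that these columns are the Tim-3+ libraries, so every value given for Tim-3+ rests on that reading. Of the 9508 genes tested (limma on log2 of RPKM plus 1), 17.7% passed, 9.08% as higher and 8.61% as lower, and 31.4% had both Nr4a1RFP+ libraries below both Tim-3+ libraries. The members' median log2 fold change was -0.29, beside -0.01 over all genes. Estimates were also all negative for 5 T cell markers (median -0.31) and 12 other class I heavy chains (-0.193). The same held for 11 other 20S subunits (-0.221) and 3 constitutive catalytic subunits (-0.122). Signs were mixed for loading and trimming genes (5 positive, 4 negative) and for regulators (8 positive, 9 negative). In sorted bulk samples, fewer cells of a kind and less RNA per cell cannot be told apart.

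Psmb10 was at 55.8 and 53.4 RPKM in Nr4a1RFP+ and at 84.6 and 72.0 RPKM in Tim-3+ libraries, 1.42-fold lower (log2 fold change -0.51, SE 0.13, adjusted p = 0.0327). Leaving out Nr4a1RFP+ replicate 1 or 2 took the adjusted p to 0.213 or 0.324, at estimates of -0.54 and -0.48. B2m was at 8467 and 7804 against 12450 and 9633 RPKM (-0.43, SE 0.26, adjusted p = 0.319), and here the Tim-3+ libraries lay farther from each other than the lower of them lay from the Nr4a1RFP+ libraries. Tap1 was at 59.6 and 57.6 against 69.2 and 82.4 RPKM (-0.36, SE 0.13, adjusted p = 0.104), and Tap2 at 45.6 and 44.4 against 52.8 and 62.3 RPKM (-0.34, SE 0.12, adjusted p = 0.109). The number of members called depended on single libraries. Without Tim-3+ replicate 1 it was 4 (with Tap1, Tap2 and Nlrc5), and without Tim-3+ replicate 2 it was 3 (with B2m and Psmb8), all lower.

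H2-K1 was at 1837 and 2061 RPKM in Nr4a1RFP+ and at 2384 and 2115 RPKM in Tim-3+ libraries (-0.21, adjusted p = 0.511), and H2-D1 at 2563 and 2418 against 3066 and 2945 RPKM (-0.27, adjusted p = 0.384). Psmb8 was at 154.5 and 145.1 against 187.3 and 182.1 RPKM (-0.30, adjusted p = 0.142), and Psmb9 at 73.1 and 63.0 against 82.3 and 77.1 RPKM (-0.23, adjusted p = 0.266). Nlrc5 was at 28.4 and 29.5 against 33.4 and 36.0 RPKM (-0.25, adjusted p = 0.163). The inducible to constitutive ratios were lower in Nr4a1RFP+ libraries for all 3 pairs, with Psmb10 over Psmb7 at 3.83 and 3.75 against 5.31 and 4.48 (exact permutation p = 0.33, the smallest possible).

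Among interferon gamma genes, 6 of 13 tested were lower in Nr4a1RFP+ cells and 3 were higher. Ifng was at 82.5 and 59.2 RPKM against 277.9 and 216.7 RPKM (log2 fold change -1.80, SE 0.20, adjusted p = 0.0012), and Gbp3 fell by 1.42 (adjusted p = 0.000337). Jak2, a kinase of the interferon gamma receptor, rose by 1.61 (SE 0.11, adjusted p = 0.000194). Of 17 regulators, Irf9, a partner of Stat2, was lower (-0.45, adjusted p = 0.0292) and Nfkb1 was higher (0.80, adjusted p = 0.0082). Irf1 (-0.35, adjusted p = 0.0865) and Rfx5 (0.14, adjusted p = 0.513) did not pass. H2-T22 passed among 12 other heavy chain genes (-0.52, adjusted p = 0.0222), Psmg1 among 9 activator and assembly genes (0.73, adjusted p = 0.00583), and none of 9 loading genes, 3 constitutive catalytic or 11 other 20S subunits did. The lowest adjusted p of those 3 lists belonged to Psma1 (-0.37, 0.0781), Pdia3, a chaperone of the loading complex (-0.19, 0.401), and Psmb7 (-0.14, 0.396).

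Markers of other cells differed between these sorted groups as well, though not all in 1 direction within a list. Summed class II and B cell markers were at 90.5 to 126 RPKM in Nr4a1RFP+ and at 22.03 to 22.22 RPKM in Tim-3+ libraries, mostly Cd74 (mean 96.1 against 12.9 RPKM), while H2-Aa overlapped. Summed myeloid and dendritic markers were at 50.4 to 58.0 against 28.6 to 33.1 RPKM, with Cd68 higher (42.6 against 14.1 RPKM, adjusted p = 0.000542) and Tyrobp (0.858 against 2.82 RPKM, adjusted p = 0.00456) and Xcr1 (0.883 against 2.79 RPKM, adjusted p = 0.00196) lower. Each list held 9 genes, all listed in the table and none at 0 in every library. NK markers summed to 27.1 to 33.1 against 48.6 to 59.1 RPKM, with Fcer1g lower (4.05 against 34.3 RPKM, adjusted p = 0.000131) and Eomes at 25.9 against 18.7 RPKM, which did not pass (adjusted p = 0.0711). Tumour and stroma markers (5 of 7 in the table) summed to 14.5 to 14.7 against 7.25 to 7.59 RPKM. Both of the 2 tested, Pmel and Pecam1, passed as higher. Erythroid markers (4 of 4) summed to 1.52 to 49.4 against 15.2 to 25.3 RPKM, and none of 3 tested passed. The part of all these markers in the class I values was not tested.

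In Ly108+ cells, Nlrc5 was lower in the libraries labelled Nr4a1 KO and was the member that passed the threshold. Of the 11265 genes tested, 4.45% passed, 2.04% as higher and 2.41% as lower, and the members' median log2 fold change was 0.12 beside 0.0044 over all genes. Nlrc5 was at 62.7, 62.5 and 63.5 RPKM in KO and at 75.4, 76.7 and 76.4 RPKM in WT libraries, 1.21-fold lower (log2 fold change -0.27, SE 0.04, adjusted p = 0.0144). Every KO library lay below every WT library. Its estimate was between -0.28 and -0.27 in every alternative setting, but the adjusted p rose to 0.0824 without KO replicate 2, 0.0578 without KO replicate 3, 0.0873 without WT replicate 2 and 0.0795 without WT replicate 3. With all genes together, the number past the threshold ranged from 68 to 1686 as single libraries were left out.

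Of the other 9 members, 6 had every KO library above every WT library, beside 14.5% of all genes, and none passed. B2m was at 4123, 4376 and 4330 RPKM in KO and at 3555, 3775 and 3809 RPKM in WT libraries (0.20, SE 0.10, adjusted p = 0.243). Psmb10 was at 48.9, 51.4 and 54.1 against 46.1, 42.3 and 43.8 RPKM (0.22, SE 0.06, adjusted p = 0.0673). Both passed as higher when edgeR was run on reads recovered from the RPKM values, with adjusted p of 0.0388 and 0.0469.

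H2-K1 was at 2081, 2195 and 2186 RPKM in KO and at 2008, 1902 and 2005 RPKM in WT libraries (0.13, adjusted p = 0.362), and H2-D1 at 1624, 1704 and 1720 against 1495, 1523 and 1522 RPKM (0.15, adjusted p = 0.24). Tap2 ranged from 31.8 to 31.9 against 28.1 to 30.5 RPKM (0.10, adjusted p = 0.228), and Psmb9 from 26.7 to 27.8 against 24.6 to 25.3 RPKM (0.12, adjusted p = 0.145). Tap1 overlapped, at 73.5 to 76.6 against 74.3 to 77.1 RPKM (-0.01, adjusted p = 0.937). So did Tapbp, at 99.3 to 115.8 against 98.2 to 101.1 RPKM, and Psmb8, at 34.7 to 43.1 against 36.7 to 39.7 RPKM. Tap1 over Tap2 was lower in all 3 KO libraries, with a geometric mean of 2.35 against 2.55 (two-sided exact permutation p = 0.1, the smallest possible), while the 3 inducible to constitutive ratios overlapped.

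Around the members in Ly108+ cells, H2-Q7 rose by 0.47 (SE 0.06, adjusted p = 0.00777) and H2-Q6 by 0.44 (SE 0.08, adjusted p = 0.0284) among 12 other heavy chain genes. Psmb5 rose by 0.24 (adjusted p = 0.0436) and Psmb1 by 0.23 (adjusted p = 0.0324), and all 14 other and constitutive 20S subunits had estimates above 0. None of 18 regulators passed, with Rela at 0.17 (adjusted p = 0.0614), Irf1 at 0.07 (0.766) and Rfx5 at 0.02 (0.945). Of the interferon gamma genes, Cxcl10 passed (0.34, adjusted p = 0.0284), and Ifng, at 55.6 to 73.5 against 54.7 to 88.7 RPKM, did not. No loading gene (lowest adjusted p Calr, 0.272) and no activator or assembly gene (Pomp, 0.146) passed.

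Beside these values, summed class II and B cell markers were at 66.8 to 68.9 RPKM in KO and at 41.4 to 44.5 RPKM in WT libraries, and summed myeloid and dendritic markers at 110 to 136 against 75.9 to 86.2 RPKM. The table held 5 of the 9 and 8 of the 9 listed genes, with none at 0 in every library. Among them, Cd74 rose by 0.65 (adjusted p = 0.00059), H2-Aa by 0.68 (adjusted p = 0.00532) and Lyz2 by 0.80 (adjusted p = 0.0332). Summed T cell markers were at 3322 to 3627 against 2498 to 2540 RPKM, a difference that lay mostly in Trac (means of 2694 against 1746 RPKM), with Cd3e at 88.9 against 88.4 RPKM and Cd8a at 178.2 against 176.3 RPKM. Tumour and stroma markers summed to 51.8 to 57.9 against 49.3 to 49.9 RPKM, and of 4 tested Col1a1 alone passed, as higher. Erythroid markers summed to 13.9 to 19.6 against 7.84 to 15.4 RPKM, and none of 3 tested passed. The part of these differences in the class I values was not tested.

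Across all 8 groups, the tables were scaled separately, so levels were set side by side as the rank of each gene among genes at 1 RPKM or more in its own library. B2m ranked at percentile 99.9 to 100 and H2-K1 and H2-D1 at percentile 99.5 to 99.9 in every library. Tap1 ranked at 86.3 and 86.7 in RV-GFP libraries and between 92.5 and 94.9 in the other 16 libraries. Psmb9 varied most, from 73.9 in RV-GFP and 79.8 in Ly108+ Nr4a1 WT up to 94.4 in Nr4a1RFP+ libraries. Nlrc5 was at 93.0 to 94.6 in Ly108+ and Nr4a1-OV libraries and at 83.4 to 88.2 in the rest, and Psmb8 was between 86.3 and 89.1 in Ly108+ and RV-GFP libraries and between 91.9 and 97.8 elsewhere. Neighbours in these orders whose ranges meet, such as the cultured Nr4a1 WT and KO groups for Nlrc5, were not told apart.

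Over the 18 libraries, with log2 values standardised within each table, B2m followed H2-D1 (r = 0.931) and H2-K1 (r = 0.883), and Tap2 and Tapbp followed Psmb9 (r = 0.831 and 0.820). Between these sets, r was 0.16 for B2m with Psmb9. Tap1 had r = -0.14 with B2m and 0.39 to 0.48 with Psmb9, Tap2 and Tapbp, and Nlrc5 had r = -0.45 with Psmb9. Psmb10 followed H2-D1 (0.689), H2-K1 (0.638) and B2m (0.58) more closely than Psmb9 (0.309) or Psmb8 (0.196). Libraries of a group share their condition and their scaling, so these values are a description of 8 groups rather than of 18 independent points. Among 8659 genes ranked, the non-members closest to the mean of the members were Itm2b (r = 0.909), Glmp (0.903), Sptlc2 (0.888), Leprotl1 (0.884) and Surf1 (0.876). Each member was set against the mean of the other members, where Tapbp came nearest (0.753) and Nlrc5 last (0.0042). The non-members were picked as the highest of all those ranked, so their r cannot be compared with those of the unpicked members.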

How the data were processed

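RNA sequencing was used on 18 libraries, which were grouped by the titles in the labels. The submitters' processing notes name Trim Galore, HISAT2, edgeR, DESeq2 and the build mm10, with no versions. The read counter, its strand setting and the annotation are not given in the sources used here. For cultured cells the authors deposited read counts per gene and RPKM values. For tumour cells the authors deposited RPKM values, and 2 columns of the tables matched no labelled library and were not used. Columns headed Tex were taken as the Tim-3+ libraries, because the series describes Nr4a1RFP+ and Tim-3+ as the populations sorted together. Only the relative library sizes behind the deposited RPKM of cultured libraries could be recovered. With their mean set to the mean of the total counts, they were 15.2 to 18.1 M. RV-GFP libraries were at 15.2 to 15.3 M, below their total counts of 16.9 M. That scaling raises every RV-GFP value relative to plain counts per M.

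Counts were filtered by expression, scaled by TMM and tested with edgeR 4.0.16 (quasi-likelihood) in R 4.3.3, in 1 model of the 8 cultured libraries. Tumour RPKM were tested with limma 3.58.1 (trend) on log2 of RPKM plus 1, for genes that reached 1 RPKM in at least 2 libraries (sorted cells) or 3 (Ly108+). That scale understates changes of low genes. All p-values are two-sided and adjusted by Benjamini-Hochberg over all genes tested, with a threshold of 0.05. Scripts were tested on simulated data. Whole reads were recovered from tumour RPKM for 88.8% and 95.6% of genes, where 97.8% to 98.9% of values under 200 reads were whole within 0.05, giving 15.2 to 24.1 M reads per library. Read depth limits precision through counting error only. Ratios of subunits used exact permutation tests over libraries. Alternatives included RLE scaling, DESeq2 1.42.0, other filters and pseudocounts, a replicate block and leaving out each library.

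The members, gene lists and tests were chosen with earlier results of these data known. Every member is named. From each list and comparison, up to 3 genes past the threshold with the smallest p are named, or the 1 with the smallest p if none passed, and Psmb5, Psmb6, Psmb7, Irf1 and Rfx5 always. One regulator of the original list is not reported here. A few genes named beside them (Nr4a1, markers and Gbp2, Irf2 or Ifngr1 where the rule did not call for them) were chosen after their values were seen. Figures were drawn with matplotlib 3.10.9 in Python 3.11.15.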

Additional observations from a re-analysis of the deposited data

Results flagged for a closer look

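For Tap2 and Psmb9, every library labelled Nr4a1 KO lay on one side of the WT libraries in culture and on the other side in Ly108+ tumour cells. Of all genes tested in Ly108+ cells, 14.5% had every KO library above every WT library, and the share in culture was not computed. Tap2 had a log2 fold change of -0.12 in culture and 0.10 in Ly108+ cells, and Psmb9 had -0.0778 and 0.12. None of these 4 log2 fold changes passed its threshold. The settings come from tables scaled separately, and the difference between them was not tested.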

How the results depend on the processing

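Of 100 alternative values of members in Nr4a1-OV against RV-GFP, 93 kept their direction and their side of the threshold. So did 85 of 100 for cultured KO against WT, 119 of 130 for the difference of these contrasts, 93 of 100 for Nr4a1RFP+ against Tim-3+ and 109 of 120 for Ly108+ cells. Estimates near 0 changed sign. Psmb10 in Nr4a1-OV cells was -0.00265 with DESeq2, -0.00264 with RLE scaling and -0.0016 with a minimum of 1 CPM, and Psmb10 in RV-GFP against Nr4a1 WT was -0.00281 with no filter. Nlrc5 in cultured KO cells was 0.00582 with that minimum and 0.00486 with only the 4 libraries compared. DESeq2, the minimum of 1 CPM and the 4 libraries alone left 1 member lower in cultured KO cells (Tap1). A filter at 5 RPKM left 1089 genes past the threshold between Nr4a1RFP+ and Tim-3+, and edgeR on recovered reads gave 978 genes and 2 members higher in Ly108+ cells. The cause was not tested.

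With single libraries left out, values ranged from -0.0629 to 0.0494 (Psmb10) and -0.0197 to 0.13 (B2m) in Nr4a1-OV against RV-GFP. They ranged from -0.0541 to 0.0148 (Nlrc5) and -0.117 to 0.015 (log2 Psmb9/Psmb6 ratio) in cultured KO against WT, with 1 to 3 members lower. Psmb10 ranged from -0.0553 to 0.12 in RV-GFP against Nr4a1 WT, and H2-D1 from -0.022 to 0.11 in the difference. Between Nr4a1RFP+ and Tim-3+, 629 to 3225 genes passed and 0 to 4 members were lower. In Ly108+ cells, 68 to 1686 genes passed, 0 to 2 members were higher and 0 to 1 lower, Tap1 ranged from -0.0232 to 0.00942, Psmb8 from -0.0111 to 0.14 and the log2 Psmb10/Psmb7 ratio from -0.0138 to 0.104. Where this left a group with 1 library, that library was assumed to vary like the others.

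Libraries of the same number did not deviate together throughout (r across genes 0.0509 and 0.0301 in culture, 0.217 for the sorted cells, and 0.124, 0.146 and -0.0876 for Ly108+), so the numbers were not taken as pairs. With a replicate block, 9003, 5848, 2143 and 485 genes passed in Nr4a1-OV, cultured KO, Nr4a1RFP+ and Ly108+ comparisons, and no member's call changed.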
